A study of Mus musculus with 7 samples.

Results

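The antiviral effectors described here are 10 interferon-induced genes, Bst2, Rsad2, Mx1, Mx2, Rtp4, Ifi44, Ifi27l2a, Ifitm3, Cmpk2 and Xaf1. They were found by gene symbol (GENCODE M21) in a table of 55401 genes, and all 10 were present and passed the filter on low counts, among 19199 genes tested. RNA sequencing was carried out on cells labelled microglia, taken with CD11b beads from the dorsal hippocampus of C57BL/6 mice of 6 to 8 weeks. All mice had received AAV-RAM-Cre, aimed at the dorsal part of the dentate gyrus; RAM is a synthetic promoter switched on by neuronal activity. The 4 control libraries (EYFP 1 to 4) came from mice that also received AAV-Dio-EYFP, and the 3 others (ATG7 1 to 3) from mice that received AAV-Dio-Atg7-Flag, a Cre-dependent virus encoding the autophagy protein ATG7. The transgenes were aimed at neurons while RNA was taken from the CD11b bead fraction. Each comparison is thus of that fraction from mice with or without the ATG7 virus. The fraction also held markers of other cells, given below. Whether a library came from 1 mouse or several is not given in the sources used here. The p-values set a group difference against the spread between these libraries, which need not be that between mice.

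Type I interferons bind a receptor on the cell surface, and the kinases Jak1 and Tyk2 then activate a complex of transcription factors that includes Stat2 and Irf9. The complex binds a short DNA element, the interferon-stimulated response element (ISRE), near the start of its target genes. The effectors encoded there act at separate steps of a viral infection: IFITM3 hinders fusion of virus with the endosome, Mx proteins trap viral components, viperin (Rsad2) makes a faulty nucleotide that stops viral polymerases, and tetherin (Bst2) holds budding particles at the cell surface. Microglia express such genes at a low level in healthy brain and strongly in viral infection, ageing and neurodegeneration.

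Promoter sequences are shown for the members because they are interferon-induced genes and their levels moved together over the libraries. Which transcription factors act on them in these cells was not tested. RefSeq promoter windows (GRCm38.p6), from 250 bases before to 50 bases after each start, were matched for 6 of the 10 members: Bst2, Rsad2, Ifitm3, Cmpk2, Ifi44 and Xaf1. Rtp4, Mx1, Mx2 and Ifi27l2a had no matched window. The ISRE core was searched on both strands as GAAANNGAAA, and matches are in capitals below. Bst2 (chr8:71537473-71537722, minus strand) is shown for a tandem match that overlaps itself. Rsad2 (chr12:26456453-26456702, minus strand) is shown for its match on the opposite strand, and its divergent neighbour Cmpk2 (chr12:26468965-26469214, plus strand) for the lack of one in this window. Starts are those of RefSeq and can lie some bases from the GENCODE ends given below. For Ifitm3 the matches lay just past the annotated start, and 30 bases around them are given (chr7:141010714-141010743, minus strand).
Bst2: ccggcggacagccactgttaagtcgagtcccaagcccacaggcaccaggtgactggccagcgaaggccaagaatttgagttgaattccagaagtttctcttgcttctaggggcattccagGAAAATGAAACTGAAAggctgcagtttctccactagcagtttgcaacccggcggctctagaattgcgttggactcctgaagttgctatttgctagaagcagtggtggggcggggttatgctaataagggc
Rsad2: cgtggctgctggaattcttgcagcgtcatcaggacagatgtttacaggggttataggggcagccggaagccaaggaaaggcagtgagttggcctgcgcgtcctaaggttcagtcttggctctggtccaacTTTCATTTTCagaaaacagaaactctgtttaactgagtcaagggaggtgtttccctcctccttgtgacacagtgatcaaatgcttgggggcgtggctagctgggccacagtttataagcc
Cmpk2: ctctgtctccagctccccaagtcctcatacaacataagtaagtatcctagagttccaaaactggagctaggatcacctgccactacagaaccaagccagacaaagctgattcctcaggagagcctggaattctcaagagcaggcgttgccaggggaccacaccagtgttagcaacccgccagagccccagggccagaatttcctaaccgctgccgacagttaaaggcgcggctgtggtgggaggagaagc
Ifitm3: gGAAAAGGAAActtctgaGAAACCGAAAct

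The ISRE core was found in 3 of the 6 windows, those of Bst2, Rsad2 and Ifitm3. Of all 32851 promoter windows, 3.44% held it. Counted by gene, 3.99% of 27025 genes had it in a window. So did 19 of 35 other interferon effectors, a list described below, and 26 of 72 genes over all the pathway lists outside the members. Counted from the start, the matches began at bases -130 and -124 in Bst2, at -120 in Rsad2, and at 3 and 20 in Ifitm3. The GAS element, another short element of interferon-responsive promoters, was searched as TTCNNNGAA. It was found in Bst2 and Ifitm3, that is in 2 of 6 windows, against 8.30% of all windows and 9.55% of genes. A shorter core of the sites bound by interferon regulatory factors, AANNGAAA, which lies inside every ISRE core, was searched after the first result was seen. This shorter core was found in 5 of 6 windows, all but that of Cmpk2, and in 23.9% of all windows and 26.7% of genes. A match is a stretch of letters and does not show binding.

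Total counts ranged from 35934210 to 55217119 per library, so that each member rested on between 112 and 8058 counts in a library. Values are given as CPM, counts divided by library size after scaling by trimmed means of M values (TMM), unless another scale is named. Atg7 itself lay between 32.0 and 37.6 CPM in all 7 libraries, with the groups overlapping. The library labelled EYFP 3 held Xist, the transcript of the inactive X chromosome, at 938.5 CPM, against at most 0.574 CPM in the others, although the series title describes the mice as male. Y-linked genes were lower there but present, with Ddx3y at 27.6 CPM against 121.1 to 168.7 CPM and Kdm5d at 8.09 CPM against 37.9 to 48.4 CPM. The library was kept. The members' calls, folds, spread and correlations and the pathway count are also given without it, and the relatives, neighbours and most alike genes were not examined without it. The 10 microglia markers, P2ry12 and Tmem119 among them, were detected and summed to between 21266 and 26251 CPM. Choroid plexus markers summed to between 46270 and 72083 CPM, more than the microglia markers in every library. In bulk RNA a change in the number of cells of a type and a change in RNA per cell cannot be told apart.

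All 10 antiviral effectors were higher in every ATG7 library than in any EYFP library. Their log2 fold changes lay between 0.86 for Bst2 and 1.80 for Ifi44, with a median of 0.96, where the median of all genes tested was -0.00365. Of the 10, 5 were called higher and 0 lower with a Benjamini-Hochberg adjusted p below 0.05 over all genes, by the quasi-likelihood test of edgeR: Bst2, Mx2, Cmpk2, Xaf1 and Ifitm3. Genome-wide 0.755% of genes were called in either direction and 0.688% as higher, and 6.33% of genes had no overlap with ATG7 higher. All 10 members had an unadjusted p under 0.05, as did 2300 of all 19199 genes (12%). The called members were not those with the largest folds: their log2 fold changes lay between 0.86 and 0.99, while Ifi44, Mx1, Rsad2 and Ifi27l2a had larger folds, wider spread between libraries and no call.

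**Figure D1:**
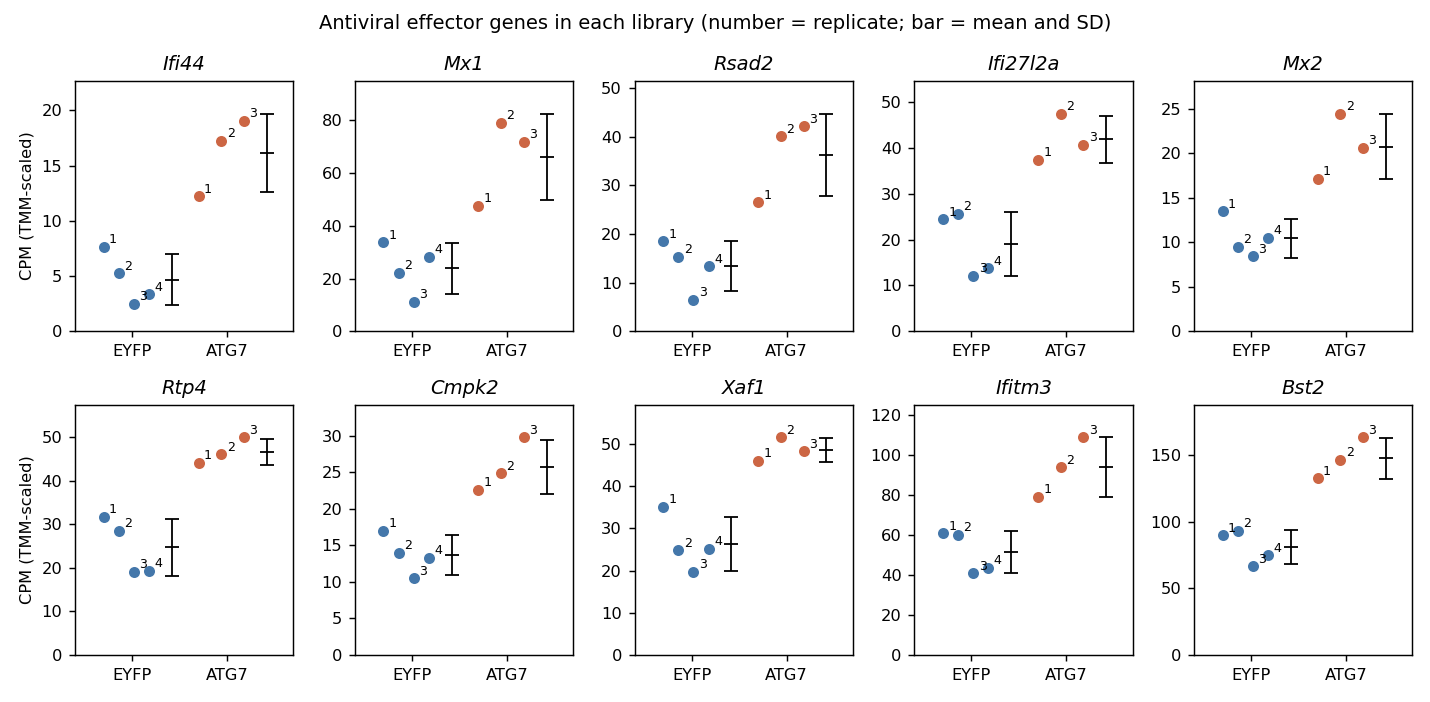
Level of each antiviral effector (CPM on the vertical axis, each panel from 0) in the 4 EYFP and 3 ATG7 libraries, with the replicate number beside each point and the mean and SD as a bar. In every panel the lowest ATG7 library lies above the highest EYFP library, by between 1.27-fold for Mx2 and 1.60-fold for Ifi44.

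Bst2 and Ifitm3, the effectors of the membrane, were the most abundant members. Bst2 encodes tetherin, an anchor that spans from the cell membrane to the envelope of budding virus. Bst2 (ENSMUSG00000046718, chromosome 8, 71534255 to 71537456, GRCm38) was at 89.8, 93.3, 66.6 and 75.0 CPM in EYFP 1 to 4 and at 132.8, 146.7 and 163.5 CPM in ATG7 1 to 3. The groups were well apart, with the lowest ATG7 library 1.42 times the highest EYFP library. The EYFP mean was 81.2 ± 12.5 CPM (SD, n = 4) and the ATG7 mean 147.7 ± 15.4 CPM (SD, n = 3). Bst2 thus rose by 0.86 log2 units (standard error, SE, 0.118; edgeR adjusted p = 0.0105). It had the smallest adjusted p of the members and the smallest spread within EYFP relative to its mean, an SD of 15.4% of it.

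Ifitm3 encodes a small membrane protein of endosomes. Ifitm3 (ENSMUSG00000025492, chromosome 7, 141009586 to 141010770) was at 60.9, 60.1, 40.9 and 43.6 CPM in EYFP 1 to 4 and at 79.1, 93.9 and 108.9 CPM in ATG7 1 to 3. EYFP 1 and 2 lay close together and above EYFP 3 and 4, and the ATG7 libraries lay above them all. The EYFP mean was 51.4 ± 10.6 CPM (SD, n = 4) and the ATG7 mean 94.0 ± 14.9 CPM (SD, n = 3). Ifitm3 thus rose by 0.87 log2 units (SE 0.160, edgeR adjusted p = 0.0471). Of its 629 stretches of 50 bases in the annotated transcripts, 63 also occur in other genes, Gm7676 foremost, and how the authors counted reads that fit several genes is not given in the sources used here.

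Mx1 and Mx2 lie side by side on chromosome 16 and encode large GTPases of the dynamin family that block replication of RNA viruses. Laboratory strains of mice commonly carry defective alleles of both, and GENCODE M21 lists Mx2 as a polymorphic pseudogene, so the values are of transcripts and not of working proteins. Mx1 (ENSMUSG00000000386, 97447035 to 97462907) was at 33.8, 22.1, 11.2 and 28.3 CPM in EYFP 1 to 4 and at 47.6, 79.0 and 71.8 CPM in ATG7 1 to 3. EYFP 3 was low and ATG7 1 stood well below the other ATG7 libraries, though above every EYFP library. Mean levels were 23.9 ± 9.67 CPM in EYFP (SD, n = 4) and 66.1 ± 16.4 CPM in ATG7 (SD, n = 3). The log2 fold change of Mx1 was 1.47 with a 95% interval of 0.575 to 2.38, and it was not called (edgeR adjusted p = 0.192).

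Mx2 (ENSMUSG00000023341, 97535308 to 97560900) was the fainter of the pair, at 13.5, 9.46, 8.40 and 10.5 CPM in EYFP 1 to 4 and at 17.1, 24.4 and 20.6 CPM in ATG7 1 to 3. Its libraries were closer together than those of Mx1 in both groups, with a coefficient of variation (SD over mean) of 20.9% against 40.5% within EYFP. Without EYFP 3 these values were 18.6% for Mx2 and 20.9% for Mx1. The EYFP mean was 10.5 ± 2.18 CPM (SD, n = 4) and the ATG7 mean 20.7 ± 3.65 CPM (SD, n = 3). Mx2 thus rose by 0.99 log2 units (SE 0.163, edgeR adjusted p = 0.0208). The pair shared 4.38% of the 50-base stretches of Mx2, and Mx1 also 3.86% of its own with Mx2, so most of the sequence of each is distinct.

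Rsad2 and Cmpk2 lie head to head on chromosome 12, with 12751 bases between them, and act in a single route: the kinase CMPK2 supplies CTP and viperin, the product of Rsad2, turns CTP into a chain terminator of viral RNA. Rsad2 (ENSMUSG00000020641, 26442746 to 26456452) was at 18.5, 15.3, 6.47 and 13.4 CPM in EYFP 1 to 4 and at 26.6, 40.1 and 42.2 CPM in ATG7 1 to 3. As with Mx1, EYFP 3 and ATG7 1 were the low libraries of their groups. Mean levels were 13.4 ± 5.10 CPM in EYFP (SD, n = 4) and 36.3 ± 8.49 CPM in ATG7 (SD, n = 3). The log2 fold change was 1.44 with a 95% interval of 0.636 to 2.24, without a call (edgeR adjusted p = 0.156).

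Cmpk2 (ENSMUSG00000020638, 26469204 to 26479837) was at 17.0, 14.0, 10.5 and 13.3 CPM in EYFP 1 to 4 and at 22.6, 24.8 and 29.8 CPM in ATG7 1 to 3. The order of the EYFP libraries was that of Rsad2, over a narrower range. The EYFP mean was 13.7 ± 2.68 CPM (SD, n = 4) and the ATG7 mean 25.7 ± 3.67 CPM (SD, n = 3). Cmpk2 thus rose by 0.91 log2 units (SE 0.150, edgeR adjusted p = 0.0206). In EYFP both genes had about the same level per kilobase of exon, 3.10 ± 1.18 (SD, n = 4) for Rsad2 and 3.29 ± 0.645 CPM per kilobase (SD, n = 4) for Cmpk2.

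Ifi44 had the largest fold of the members and the lowest level. It encodes a cytoplasmic protein whose role in cells is less well defined. Ifi44 (ENSMUSG00000028037, chromosome 3, 151730922 to 151749960) was at 7.65, 5.23, 2.48 and 3.34 CPM in EYFP 1 to 4 and at 12.2, 17.2 and 19.0 CPM in ATG7 1 to 3. The EYFP libraries spanned 3.08-fold, the widest range of any member, yet all lay below the ATG7 libraries. Mean levels were 4.68 ± 2.29 CPM in EYFP (SD, n = 4) and 16.2 ± 3.53 CPM in ATG7 (SD, n = 3), which is a log2 fold change of 1.80 with a 95% interval of 0.996 to 2.60 (edgeR adjusted p = 0.0761, not called).

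Ifi27l2a encodes a small hydrophobic protein of the ISG12 family. Ifi27l2a (ENSMUSG00000079017, chromosome 12, 103442167 to 103443680) was at 24.4, 25.6, 12.1 and 13.7 CPM in EYFP 1 to 4 and at 37.4, 47.5 and 40.7 CPM in ATG7 1 to 3. EYFP 1 and 2 were about level and well above EYFP 3 and 4. Mean levels were 19.0 ± 7.02 CPM in EYFP (SD, n = 4) and 41.9 ± 5.12 CPM in ATG7 (SD, n = 3), which is a log2 fold change of 1.14 with a 95% interval of 0.505 to 1.78 (edgeR adjusted p = 0.152, not called).

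Rtp4 encodes a chaperone that carries receptors to the cell surface and that interferon induces in many tissues. Rtp4 (ENSMUSG00000033355, chromosome 16, 23520291 to 23614222) was at 31.7, 28.5, 19.0 and 19.3 CPM in EYFP 1 to 4 and at 44.1, 46.0 and 49.9 CPM in ATG7 1 to 3. The ATG7 libraries were close together, and the EYFP libraries fell into the same pairs as for Ifi27l2a and Ifitm3. Mean levels were 24.7 ± 6.45 CPM in EYFP (SD, n = 4) and 46.7 ± 2.99 CPM in ATG7 (SD, n = 3), which is a log2 fold change of 0.92 with a 95% interval of 0.534 to 1.31. Its edgeR adjusted p of 0.050008 missed the threshold by less than the last digit usually printed. The annotated gene overlaps Masp1 on the opposite strand and Gm45338 on its own, and it shares 11.6% of its 50-base stretches with Gm45338, which had between 19 and 39 counts in a library.

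Xaf1 encodes a partner of the apoptosis inhibitor XIAP and promotes cell death when abundant. Xaf1 (ENSMUSG00000040483, chromosome 11, 72301629 to 72313733) was at 35.1, 24.8, 19.8 and 25.2 CPM in EYFP 1 to 4 and at 46.0, 51.6 and 48.3 CPM in ATG7 1 to 3. EYFP 1 was nearest to the ATG7 libraries, which varied little among themselves. The EYFP mean was 26.2 ± 6.44 CPM (SD, n = 4) and the ATG7 mean 48.6 ± 2.82 CPM (SD, n = 3). Xaf1 thus rose by 0.89 log2 units (SE 0.157, edgeR adjusted p = 0.0342).

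**Figure D2:**
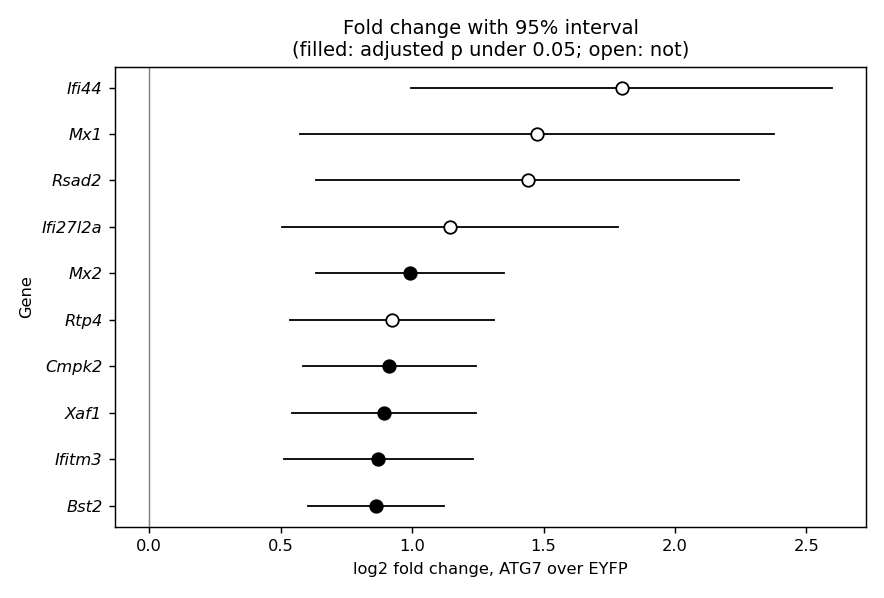
Log2 fold change of each antiviral effector in ATG7 over EYFP (horizontal axis) with its 95% interval; filled points were called at an adjusted p under 0.05 and open points were not. The 5 called genes have the narrower intervals, and Ifi44, Mx1, Rsad2 and Ifi27l2a lie farthest to the right with wider ones.

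Levels were compared between members per kilobase of annotated exon. In EYFP the order was Bst2 (89.9 CPM per kilobase), Ifitm3 (75.8), Ifi27l2a (41.0), Rtp4 (11.6), Mx1 (6.30), Xaf1 (5.59), Cmpk2 (3.29), Rsad2 (3.10), Mx2 (2.89) and Ifi44 (0.763 CPM per kilobase). The library ranges of Bst2 and Ifitm3 overlapped. That of Mx1 (2.97 to 8.92 CPM per kilobase) overlapped those of Xaf1, Cmpk2, Rsad2 and Mx2. The range of Xaf1 also overlapped that of Rsad2, and those of Cmpk2, Rsad2 and Mx2 overlapped one another. In ATG7 the order was the same except that Rsad2 stood before Cmpk2. Rsad2 was at 8.37 ± 1.96 CPM per kilobase (SD, n = 3) and Cmpk2 at 6.18 ± 0.882 (SD, n = 3), with overlapping ranges. The ATG7 ranges of Bst2 and Ifitm3 overlapped too, as did those of Rtp4 and Mx1, and that of Mx2 with those of Rsad2 and Cmpk2. The short genes of the membrane, with Ifi27l2a, were thus the abundant members in both groups, and Ifi44 the scarce one.

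The members varied together from library to library. EYFP 3 was the lowest EYFP library for all 10 genes, and EYFP 1 the highest for 8, the exceptions being Bst2 and Ifi27l2a, for which EYFP 2 was highest. ATG7 1 was the lowest ATG7 library for all 10, and the highest was ATG7 3 for 6 and ATG7 2 for 4. The coefficient of variation was between 15.4% and 49.0% within EYFP and between 5.79% and 24.9% within ATG7, and was larger within EYFP for all 10 genes. Without EYFP 3 it was between 11.3% and 39.97% within EYFP and larger there for 7 genes. For the other genes the direction then turned: Mx1 had 20.9% within EYFP against 24.9% within ATG7, Rsad2 16.5% against 23.4%, and Cmpk2 13.5% against 14.3%. The 10 genes summed to 332.5, 298.3, 197.5 and 245.6 CPM in EYFP 1 to 4 and to 465.5, 571.3 and 594.8 CPM in ATG7 1 to 3. As a description over 7 libraries, which share the group difference, each member's log2 CPM had a Pearson correlation of between 0.952 (Mx1) and 0.996 (Ifi44) with the mean of the other 9. Over the 6 libraries without EYFP 3 the range was 0.929 (Ifi27l2a) to 0.994 (Ifi44).

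**Figure D3:**
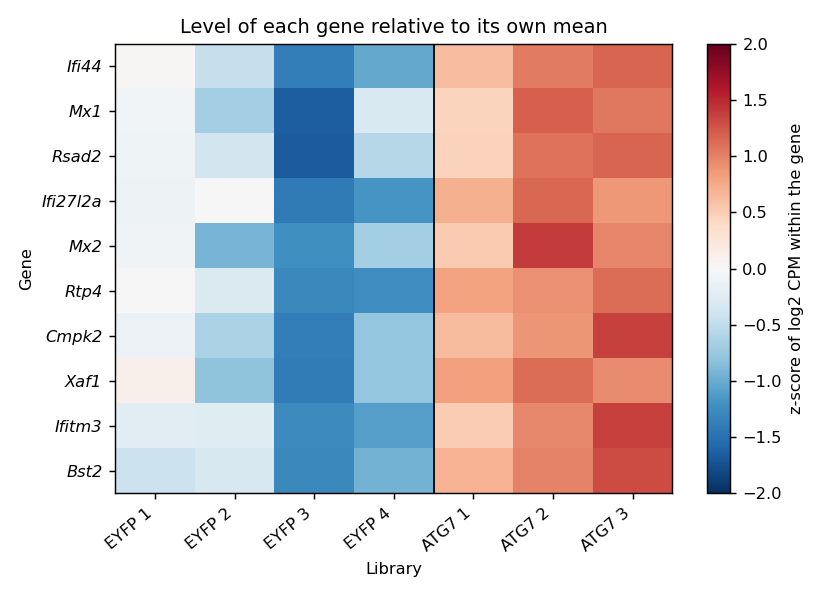
Log2 CPM of each antiviral effector as a z-score within the gene (color, red above the gene's mean and blue below), by library; the line parts EYFP from ATG7. The column of EYFP 3 is the darkest blue in every row, EYFP 1 is near the mean, and ATG7 1 is paler than ATG7 2 and 3.

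Leaving out EYFP 3, the library with Xist, lowered the fold change and the SE of all 10 members. Without it 9 of the 10 members were called higher (edgeR adjusted p under 0.05), all but Ifi27l2a (adjusted p = 0.102), while 0.871% of all genes were called. The log2 fold changes were then between 0.77 for Ifitm3 and 1.58 for Ifi44. Mx1, for instance, had 1.23 (SE 0.203, edgeR adjusted p = 0.0369) and Rsad2 1.20 (SE 0.177, edgeR adjusted p = 0.0155). The number of calls depended on single libraries in the other direction too: it was 1 without EYFP 2 and 0 without EYFP 4, ATG7 2 or ATG7 3. Calls over all genes were also fewer in these fits. They numbered 94 of 18822 without EYFP 2, 30 of 18985 without EYFP 4, 28 of 19459 without ATG7 2 and 30 of 19532 without ATG7 3. All 10 members kept an unadjusted p under 0.05 in each of these fits, as did between 8.39% and 10.1% of all genes. DESeq2 and limma-voom each called all 10 as higher, against 3.03% and 0.958% of all genes.

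The other genes of the interferon pathway were examined in lists written from general knowledge, with earlier results of these data known. Counts of calls in these lists are therefore descriptions. Of all genes tested, 0.688% were called higher (edgeR). Among 40 other interferon effectors, all tested, 20 were called higher and 0 lower (edgeR; 1 was lower at an unadjusted p under 0.05), with a median log2 fold change of 0.82. The 4 with the smallest p were Gbp2, a guanylate-binding GTPase of host defence (1.14, SE 0.137), Trim25, the ubiquitin ligase that activates RIG-I (0.51, SE 0.0776), Slfn8 of the Schlafen family (0.65, SE 0.0992) and Isg15, the ubiquitin-like modifier (1.52, SE 0.217). Their edgeR adjusted p were 0.00705, 0.0156, 0.0156 and 0.0182. Isg15 averaged 8.58 ± 2.21 CPM in EYFP (SD, n = 4) and 24.5 ± 5.66 CPM in ATG7 (SD, n = 3).

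Of 20 genes of interferon signalling 18 were tested, and 4 were called higher, with Stat2, Usp18 and Irf1 among them. The signal carrier Stat2 rose by 0.93 on the log2 scale (SE 0.131, edgeR adjusted p = 0.0137). Usp18, which removes ISG15 and dampens the receptor, rose by 1.49 (SE 0.248, edgeR adjusted p = 0.0420), and the transcription factor Irf1 by 0.53 (SE 0.105, edgeR adjusted p = 0.0483). The receptor chains Ifnar1 and Ifnar2 had log2 fold changes of 0.18 and 0.14 and the kinases Jak1 and Tyk2 0.08 and 0.12, and these 4 genes were not called. Ifnb1, the gene of interferon beta, was scarce, averaging 0.237 ± 0.173 CPM in EYFP (SD, n = 4) and 0.874 ± 0.495 CPM in ATG7 (SD, n = 3), with a log2 fold change of 1.90 and no call (edgeR adjusted p = 0.251). The median of the list was 0.24. The receptor and kinase genes and Ifnb1 are named here with their values already known.

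Among 13 genes of nucleic acid sensing, all tested, 3 were called higher, and all 3 encode RNA helicases of the RIG-I family. Dhx58 (LGP2) rose by 1.11 (SE 0.151, edgeR adjusted p = 0.0118), Ddx58 (RIG-I itself) by 0.64 (SE 0.102, edgeR adjusted p = 0.0206) and Ifih1 (MDA5) by 0.58 (SE 0.0949, edgeR adjusted p = 0.0206). The median of the list was 0.19. Over all 86 genes outside the members 79 were tested, 27 were called higher and 0 lower, and the median log2 fold change was 0.53. This count was 34 without EYFP 3, 10 without EYFP 2, 2 without EYFP 4, 3 without ATG7 2 and 2 without ATG7 3 (edgeR). Over all genes these fits called 164, 94, 30, 28 and 30, in the same order, where the reported fit called 145.

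**Figure D4:**
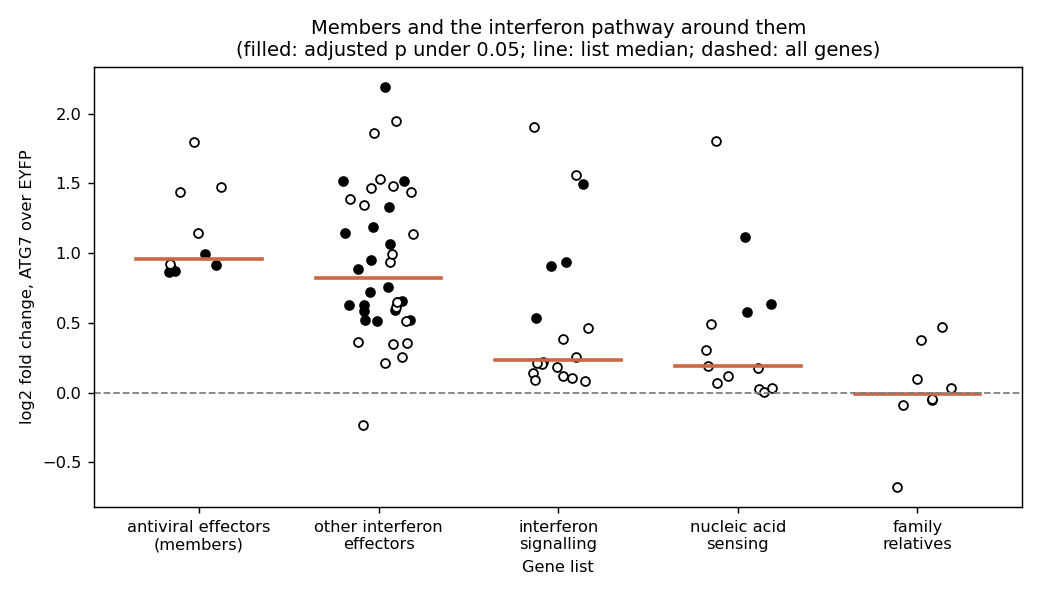
Log2 fold change in ATG7 over EYFP of each tested gene (vertical axis) in the antiviral effectors and 4 lists of related genes; filled points were called, the colored line is the list's median and the dashed line that of all genes. The medians are 0.96 for the members, 0.82 for other effectors, 0.24 for signalling, 0.19 for sensing and -0.01 for family relatives.

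No tested relative from the members' own gene families was called. Of 13 relatives 8 were tested, and 0 were called by edgeR, DESeq2 or limma-voom, with 0 at an unadjusted p under 0.05 in each. Over all genes edgeR called 0.755%, and 12% had an unadjusted p under 0.05, so counts of 0 among 8 genes are near those shares. The median log2 fold change of the relatives was -0.00780. Next to Ifitm3, Ifitm1 had a log2 fold change of -0.09 and Ifitm6 of 0.47, and Ifitm2 and Ifitm10 had 0.10 and 0.03. Next to Ifi27l2a, Ifi27 averaged 206.3 ± 25.6 CPM in EYFP (SD, n = 4) and 199.2 ± 40.3 CPM in ATG7 (SD, n = 3), with a log2 fold change of -0.05. Ifi27l2b, on the other side, averaged 0.326 ± 0.0240 CPM in EYFP (SD, n = 4) and 0.201 ± 0.0470 CPM in ATG7 (SD, n = 3). Its groups did not overlap, with ATG7 lower, at an unadjusted p of 0.106 (edgeR). It was scarce, at 0.172 to 0.349 CPM in the libraries, where 3 counts are 0.0543 to 0.0835 CPM. The share of all genes without overlap and with ATG7 lower is not given here. The kinase Cmpk1 had a log2 fold change of -0.05 and Rtp3, of the receptor transporter family, 0.37. The difference between the members and these relatives was not tested, and the Ifitm, Ifi27 and Mx families can share reads.

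Genes beside the members on the chromosome were measured as a description. For each member the nearest tested protein-coding gene on either side was taken, 19 genes in all, of which 12 belonged to none of the lists. Of these 12, 0 were called by edgeR, DESeq2 or limma-voom and 1, Bcl6, had an unadjusted p under 0.05 (edgeR adjusted p = 0.179). Over all genes these tools called 0.755%, 3.03% and 0.958%, and 12% had an unadjusted p under 0.05 (edgeR). The 12 neighbours were thus near those shares and cannot show where the differences end. Their log2 fold changes lay between -0.45 for Slc13a5 and 0.37 for Adgrl4, with a median of -0.00891. Beside Bst2, Mvb12a had -0.03 and Ccdc194 -0.23. Rnf144a, on the far side of Rsad2, had -0.02, and Sox11, on the far side of Cmpk2, 0.13. The pair of Mx genes was flanked by Bace2 (0.10) and Tmprss2 (-0.23). Beside Xaf1, Tekt1 had -0.14, beside Rtp4, St6gal1 had 0.01, and beside Ifi44, Ptgfr had 0.01.

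By a fixed rule, the 5 genes outside the members whose pattern over the 7 libraries was most like the members' mean were named, out of 15041 genes with a mean of at least 1 CPM. They were Sp100, a protein of nuclear bodies (Pearson r = 0.996), H2-K1, a class I histocompatibility heavy chain (0.996), Oasl2, of the OAS-like proteins (0.996), Slfn5, of the Schlafen family (0.996), and the interferon regulatory factor Irf7 (0.995). Sp100 rose by 1.07 (SE 0.182, edgeR adjusted p = 0.0401) and H2-K1 by 1.02 (SE 0.157, edgeR adjusted p = 0.0184) on the log2 scale. Irf7 averaged 34.2 ± 13.2 CPM in EYFP (SD, n = 4) and 100.8 ± 25.8 CPM in ATG7 (SD, n = 3), and was not called at a log2 fold change of 1.56 (edgeR adjusted p = 0.152). These correlations are descriptions over 7 libraries that differ by group. The members' mean parts the groups, so a higher level in ATG7 was built into the choice of these genes. Their fold changes and adjusted p are thus descriptions too.

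Marker lists of the cells that the bead fraction could hold were measured beside the members. The markers of microglia, border macrophages, blood myeloid cells, neurons, astrocytes, oligodendrocytes, endothelium and choroid plexus had overlapping sums in the groups, and edgeR and limma-voom called no marker in any of these lists. Bst2 and Ifitm3 are also expressed by endothelial cells, whose 7 markers summed to between 525.8 and 812.1 CPM in EYFP and between 581.0 and 1107 CPM in ATG7. Of these endothelial markers, 6 of 7 were positive, with a median log2 fold change of 0.26. Lymphocyte markers, 9 genes of which 7 were tested, were the only list whose sums did not overlap. They summed to between 8.14 and 13.4 CPM in EYFP and between 13.7 and 26.2 CPM in ATG7, with 6 of 7 positive and a median log2 fold change of 1.53. Of the 7, 0 were called by edgeR or limma-voom, 3 were called higher by DESeq2, and 5 had an unadjusted p under 0.05 (edgeR). All 9 were detected, and the lowest sum was that of EYFP 3, as for the members; the other EYFP libraries lay between 10.01 and 13.4 CPM. Genes induced by tissue dissociation were positive in 10 of 10, with sums between 2055 and 3232 CPM in EYFP and between 2735 and 2979 CPM in ATG7. Of these 10, 0 were called by edgeR, DESeq2 or limma-voom, and 0 had an unadjusted p under 0.05 in each. Over all genes 12% had one (edgeR). No marker was at 0 in every library. The 7 choroid plexus markers had a median log2 fold change of -0.26, with 0 of 7 positive and 0 called (edgeR). In a fit that also held the mean log2 level of the choroid plexus markers, 0 of the 10 members were called (edgeR). This fit was added once the data had been seen. Over all 19199 genes it called 12, where the reported fit called 145. In it 8 members had an unadjusted p under 0.05, as did 8.76% of all genes. The members' log2 fold changes in that fit were between 0.78 and 1.61, with a median of 0.90, and the SE was larger for all 10, between 0.169 and 0.586 where it had been between 0.118 and 0.373. The part of lymphocytes, of endothelial cells and of dissociation in the members' difference was not tested.

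**Figure D5:**
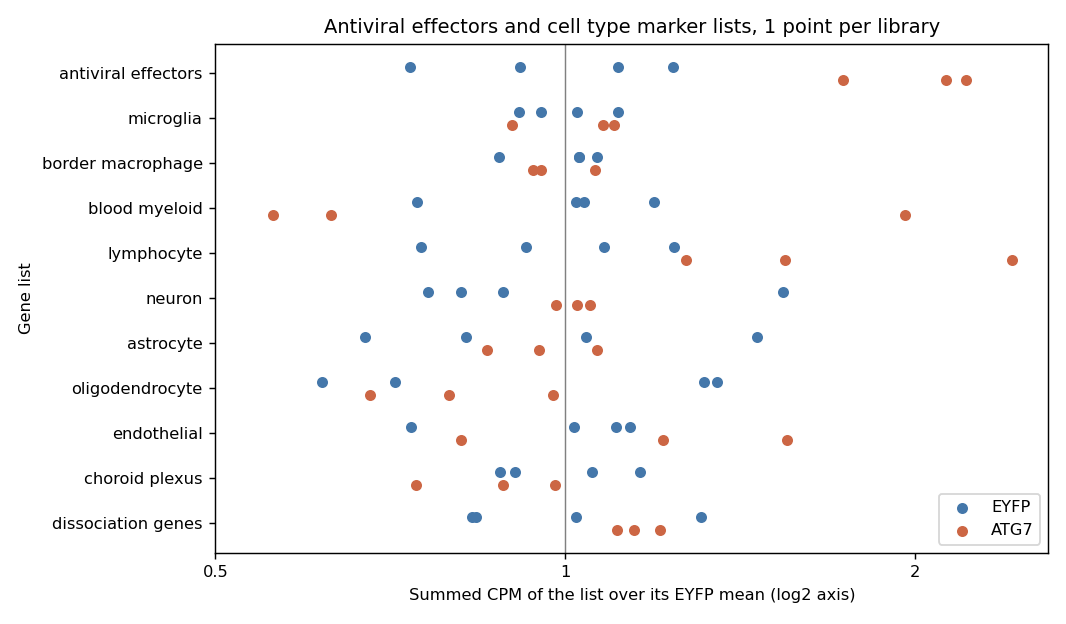
Summed CPM of the antiviral effectors and of each marker list, divided by the mean of its EYFP libraries (horizontal log2 axis), with 1 point per library. The members and the lymphocyte markers are the lists whose ATG7 points all lie to the right of their EYFP points.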

How the data were processed

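Counts per gene were deposited by the authors as whole numbers for 55401 Ensembl identifiers in 7 libraries, and 0 columns were left unmatched. The submitters' processing notes name fastp 0.20.1, HISAT2 2.0.5, featureCounts and the build GRCm38 (mm10); the annotation release, the strand setting and the treatment of shared reads are not given in the sources used here. The 37 mitochondrial genes hold 0 counts. Symbols and coordinates came from GENCODE M21 (GRCm38), which matched 55141 identifiers; the older name Mb21d1 was resolved to Cgas through RefSeq synonyms.

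Libraries were grouped by title. All genes left by filterByExpr (19199) were tested by quasi-likelihood F-tests (edgeR 4.0.16, R 4.3.3; robust, TMM, no covariate), two-sided, with Benjamini-Hochberg adjustment and a threshold of 0.05. SE is the absolute log2 fold change over the square root of F; the prior count for log2 CPM was 2. Calls were repeated with DESeq2 1.42.0, limma 3.58.1 and other settings. Fits were tested on simulated counts with known changes.

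The members and lists were chosen with earlier results of these data known. Named are all members, the tested relatives and neighbours, up to 4 called genes of each list by smallest p, and the 5 genes most alike. Some single genes of the lists are not reported here. Without molecular identifiers in the labels, counts need not be independent molecules. Promoters are RefSeq's (GRCm38.p6). Protein sequences were not used here, so the protein comparison was not made. Same-group libraries differed by more than sampling noise (chi-square per degree of freedom of at least 19.2).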

Additional observations from a re-analysis of the deposited data

How the results depend on the processing

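Over 18 alternatives, all 10 members kept a positive log2 fold change, between 0.75 (Ifitm3) and 2.13 (Ifi44), but calls moved. Of the 180 adjusted p values of single members under these alternatives, 121 stayed on their side of the threshold, 33 lost a call and 26 gained one. The called members numbered 3 with no filter on low counts, 8 without robust fitting, and 10 with limma-voom, with or without quality weights, and with DESeq2. DESeq2 called 45 of the other pathway genes, in place of 27. Over all genes 145 were called. The count was 297 with no filter (78.8% higher, against 91.0% in the reported fit), 582 with DESeq2 (69.8% higher) and 275 at an adjusted p under 0.1. Leaving out 1 library at a time gave 28 (without ATG7 2) to 277 genes (without EYFP 1), 94 without EYFP 2 and 30 without EYFP 4 or ATG7 3, and 0 to 9 members and 2 to 37 pathway genes. With the choroid plexus score as covariate, an alternative chosen after earlier results were seen, edgeR called 12 genes, 0 members and 0 pathway genes. Scaling by library size, by upper quartile or by DESeq2 size factors kept the members' count at 4 or 5. With the replicate number as a replicate block, 0 genes, 0 members and 0 pathway genes were called (edgeR), while 1256 genes and all 10 members had an unadjusted p under 0.05. Deviations of same-numbered libraries from their group means had correlations of -0.0609, -0.182 and 0.0664, and pairs of unlike number had from -0.145 to 0.215. With so few libraries these values cannot decide whether the numbers mark pairs or batches. No label says what a number marks, so the block was not part of the reported fit. The cause of the changes in calls was not tested. The smallest member count in a library was 112, so every member was detected in every library. The part of depth in the calls was not tested.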
